A study of Rattus norvegicus with 8 samples.

Results

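The transporters described here are 9 rat genes, Abcc2, Abcb4, Abcb11, Abcb1b, Abcc3, Slc10a1, Slco1a1, Slco1a4 and Slc22a7, which move bile salts, phospholipid and organic anions across the plasma membrane of hepatocytes. They were chosen by name, through the probe sets whose only gene symbol in the platform's annotation was one of the 9, out of 4736 genes named on the array. All 9 had a probe set and Slc22a7 had a pair, which made 10 probe sets. Of these, 9 probe sets of 8 genes were bright enough to be tested, and Abcb1b was not. Liver RNA came from 8 male Fischer 344 rats, each hybridised to its own Affymetrix array (Rat Genome U34, version A), all fed AIN 76A chow and all with an age labelled as 6 without a unit. The 4 Liver_Control rats were gavaged with 0.2 ml of the vehicle, saturated sucrose. The 4 Liver_D3T rats were gavaged with 3H-1,2-dithiole-3-thione (D3T), a dithiolethione, at 0.3 mmol per kg body weight in the same vehicle. Dosing fell on days 1, 3 and 5, although the label of vehicle replicate 2 names no days. The question is which transporter transcripts differed in liver after D3T.

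A hepatocyte takes bile salts and other anions from the blood through carriers on its sinusoidal face and secretes them into bile through ATP-driven pumps on its canalicular face. Uptake of conjugated bile salts runs with sodium through the protein of Slc10a1, while the Slco1a and Slc22a7 proteins take up a wide range of organic anions. On the canalicular face the Abcb11 protein exports bile salts, the Abcc2 protein exports glutathione, glucuronide and sulfate conjugates, and the Abcb4 protein moves phosphatidylcholine into bile. The Abcc3 protein sits on the basolateral face and returns conjugates to the blood, and Abcb1b encodes a multidrug export pump. D3T is known to raise conjugating enzymes, whose products are substrates of several of these pumps.

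The stretches of DNA just before the starts of Abcc2 and Abcb4, the members that passed the test, and of Slc10a1, which carries matches to a searched motif, are shown to give the sequence context of these genes. They are the 250 bases before the start in RefSeq's rat assembly GRCr8, written 5′ to 3′ on the gene's strand, at chr1:252613625-252613874 on the plus strand for Abcc2, chr4:26164146-26164395 on the minus strand for Abcb4 and chr6:106357945-106358194 on the minus strand for Slc10a1. Capitals mark matches, on either strand, to AGGTCA, the half-site read by many nuclear receptors.
Abcc2: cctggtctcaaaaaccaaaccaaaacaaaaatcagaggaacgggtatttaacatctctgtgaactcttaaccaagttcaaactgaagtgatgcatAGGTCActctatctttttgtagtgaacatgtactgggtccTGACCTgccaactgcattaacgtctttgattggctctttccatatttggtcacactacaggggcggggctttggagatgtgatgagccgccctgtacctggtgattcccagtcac
Abcb4: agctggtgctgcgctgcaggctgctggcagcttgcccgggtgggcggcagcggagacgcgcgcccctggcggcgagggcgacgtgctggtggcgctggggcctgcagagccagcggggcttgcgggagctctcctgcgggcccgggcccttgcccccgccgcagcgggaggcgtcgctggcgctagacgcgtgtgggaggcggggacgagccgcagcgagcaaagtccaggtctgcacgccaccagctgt
Slc10a1: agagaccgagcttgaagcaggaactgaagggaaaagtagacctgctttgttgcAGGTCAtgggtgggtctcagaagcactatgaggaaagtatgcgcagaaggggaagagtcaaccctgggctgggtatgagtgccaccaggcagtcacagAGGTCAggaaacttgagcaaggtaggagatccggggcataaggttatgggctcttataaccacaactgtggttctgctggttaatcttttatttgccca
The half-site was searched on both strands over 300 bases, from 250 before to 50 after the start, as was TGACNNNGC, the core of the antioxidant response element. Of the 7 members with an entry in the RefSeq promoter table, 2 held the half-site, Abcc2 and Slc10a1, each at 2 places, against 16.2% of all 33469 promoters. In Abcc2 the matches began 155 and 115 bases before the start, the nearer one on the opposite strand, and in Slc10a1 they began 197 and 99 bases before it. The antioxidant response core was matched by 1 of the 7, Abcc2, as TGACATAGC beginning 17 bases after the start, against 12.1% of all promoters. No match to one motif overlapped a match to the other, and a match in these letters is a description and not a binding site.

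Signals are the authors' MAS5 values, rescaled to a 2% trimmed mean of 500 on each array. A probe set measures relative change between arrays, so levels of different genes are not compared. The response to D3T was present on these arrays: Nqo1 was 3.44-fold higher (limma adjusted p = 0.00115) and Gstp1 29.9-fold higher (adjusted p = 6.4e-07). All 11 hepatocyte markers with a probe set were measured, with a summed signal from 182479 to 263736 in vehicle and from 221670 to 295918 after D3T. Of the 11, 1 was lower, the fibrinogen chain gene Fgb (log2 fold change -0.80 ± 0.16 SE, adjusted p = 0.0126, groups not overlapping), none was higher, and Alb did not pass (log2 fold change 0.46 ± 0.17 SE, adjusted p = 0.106). Among other liver cells, the summed markers of endothelium and of Kupffer cells and leukocytes did not overlap between the groups. The sums of stellate cell and fibroblast markers and of cholangiocyte markers overlapped. With 1 probe set per gene, 5.84% of all 3150 genes tested were called lower and 3.71% higher. The 5 endothelial markers on the array summed to between 1286 and 1554 in vehicle and between 843.8 and 1129 after D3T, with 2 of 4 tested lower. The 6 Kupffer cell and leukocyte markers summed to between 3897 and 5142 against 2964 to 3688. Of 5 tested, 1 was lower, Cd74 (log2 fold change -1.42), and 1 higher, Cd14 (0.80). The 8 stellate cell and fibroblast markers ran from 2039 to 3705 against 1712 to 2223. Of 6 tested, 1 was lower, Col3a1 (log2 fold change -0.90), and the others had both signs. The 7 cholangiocyte markers ran from 647.3 to 828.5 against 796.3 to 989.6, with none of 4 called, and of all these lists the marker Ggt1 alone was below the signal floor on every array. The part of these shifts in the transporter results was not tested. In whole liver fewer cells of a type cannot be told apart from less RNA per cell or from changes of single marker genes. The signal ratio of the 3′ to the 5′ actin probe set, a measure of RNA integrity, ran from 1.45 to 1.59 in vehicle and from 1.17 to 1.47 after D3T (exact two-sided permutation p = 0.0571 over 70 assignments).

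The 3 canalicular genes that were tested, Abcc2, Abcb4 and Abcb11, all had lower signals in every D3T rat than in any vehicle rat. Of them 2, Abcc2 and Abcb4, passed the test. The export pump gene Abcb1b was too dim to be tested and is not in this count. Abcc2 was 1.91-fold lower, Abcb4 1.58-fold lower and Abcb11 1.27-fold lower without passing. Across the 9 tested probe sets of the transporters, 2 passed an adjusted p of 0.05, both lower, where 10.7% of all 5244 probe sets tested passed in either direction, 6.48% as lower and 4.2% as higher. The groups did not overlap for 3 of the 9, all lower, against 11.3% of all tested probe sets lower, 7.89% higher and 19.2% in either direction. The median log2 fold change of the 9 was -0.35, beside 0.02 over all probe sets tested, and 8 of the 9 values were negative. No pathway-wide test was made, and these counts describe the list only.

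Abcc2, the pump for conjugated organic anions (probe set D86086_s_at), gave signals of 1873, 2102, 2107 and 1473 in vehicle replicates 1 to 4. After D3T it gave 1142, 1020, 882.6 and 892.5. The highest D3T rat therefore lay below the lowest vehicle rat, and vehicle replicate 4 was the lowest of its group. The means were 1889 ± 297.9 (SD, n = 4) and 984.3 ± 122.2 (SD, n = 4), and the log2 fold change was -0.93 ± 0.15 (SE; 95% interval -1.26 to -0.60; limma adjusted p = 0.00513). The call was kept in 19 of 20 alternative settings, including all 8 fits that left out 1 array, where the log2 fold change ran from -1.05 to -0.88. It was lost with the actin ratio as a covariate, where the value was -1.04 (adjusted p = 0.108).

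Abcb4, the phospholipid translocator (L15079mRNA_s_at), gave 837.3, 746.2, 907.4 and 1048 in the vehicle replicates. The D3T replicates gave 554.0, 470.4, 625.6 and 581.1. All D3T values lay under the lowest vehicle value, that of replicate 2, and both groups were tight, with a coefficient of variation of 14.4% in vehicle and 11.7% after D3T. The log2 fold change was -0.66 ± 0.15 (SE; 95% interval -0.99 to -0.33; adjusted p = 0.0208 by limma). Without vehicle replicate 1, 3 or 4 or D3T replicate 1 the adjusted p was 0.0507, 0.0624, 0.0584 or 0.0551, with log2 fold changes from -0.68 to -0.58. With the actin ratio as a covariate the value was -0.61 (adjusted p = 0.299).

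Abcb11, the bile salt export pump (AF010597_s_at), gave 2040, 1873, 2472 and 1954 in vehicle and 1519, 1477, 1770 and 1814 after D3T. The groups did not overlap, but the gap between them was narrow, from 1814 in D3T replicate 4 to 1873 in vehicle replicate 2. The means were 2085 ± 266.9 and 1645 ± 171.4 (SD, n = 4 each). The log2 fold change of -0.34 ± 0.13 (SE) did not pass (limma adjusted p = 0.114), and its 95% interval ran from -0.62 to -0.05. It passed in 0 of 20 alternative settings, in which it stayed negative, between -0.47 and -0.25.

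Abcb1b, the multidrug export pump (M81855_at), was at or near the bottom of the signal range. Vehicle rats gave 5.19, 6.49, 12.3 and 8.58, and D3T rats gave 6.49, 13.3, 22.1 and 8.88. The floor, the 20th percentile of all values, was 20.4, so D3T replicate 3 was the only array above it. No level or fold change can be stated for this gene, and it was not tested.

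**Figure D1:**
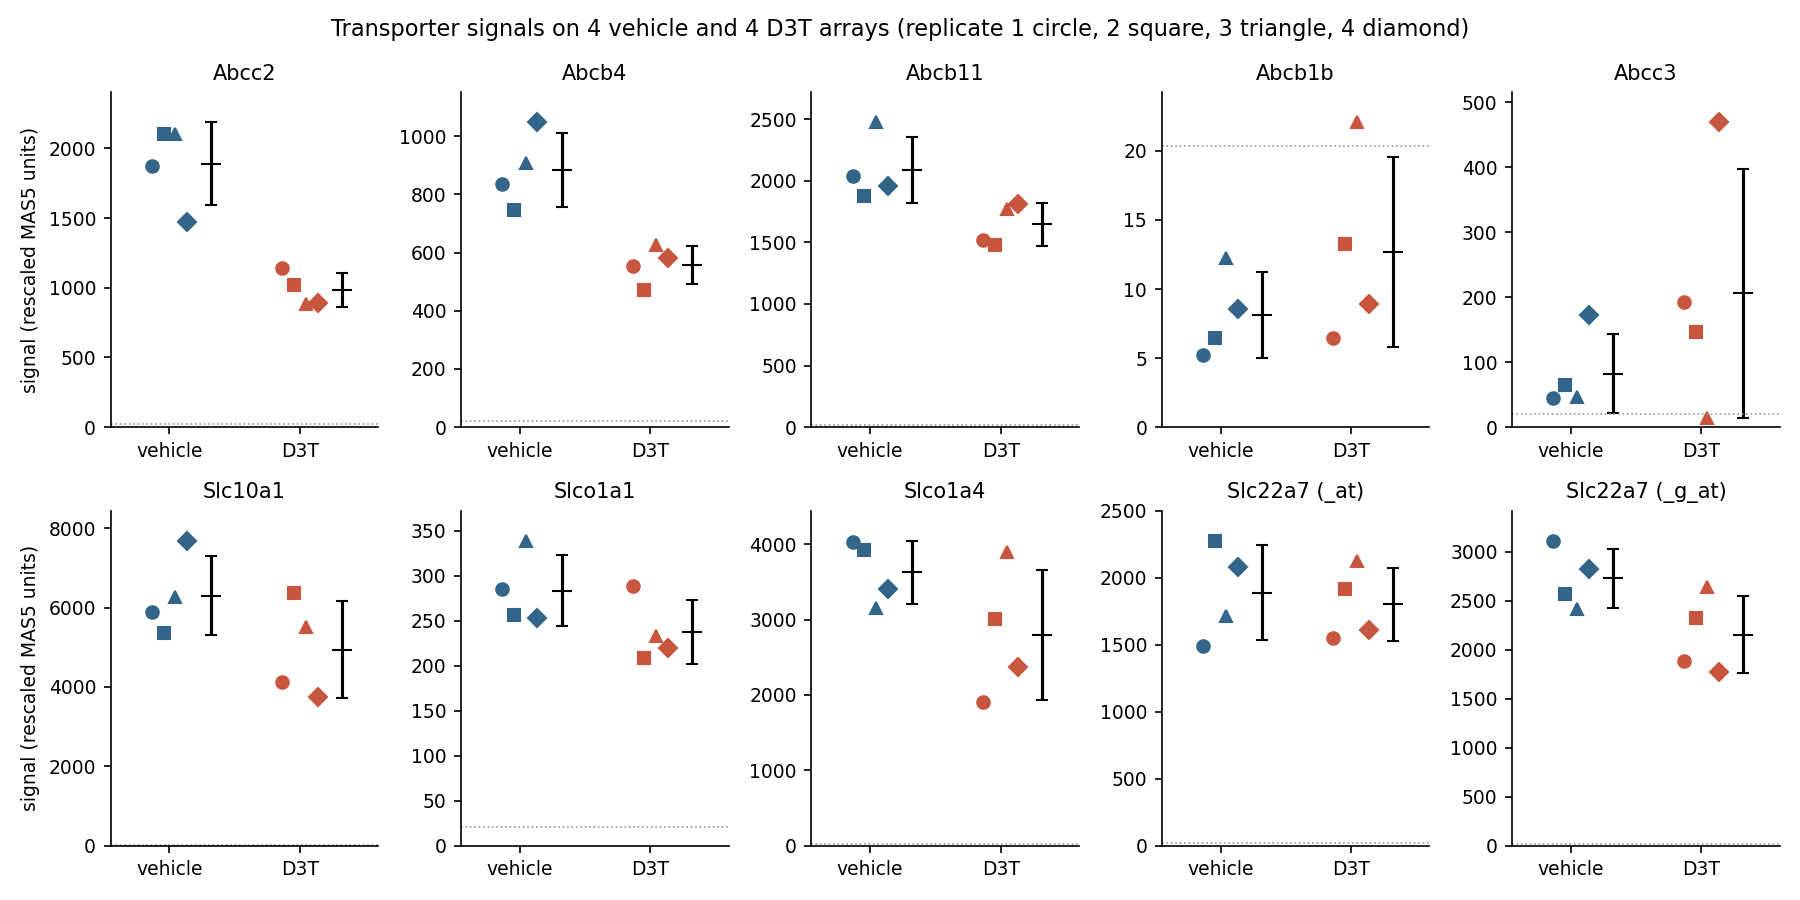
Signal of each transporter probe set (rescaled MAS5 units, linear axis from 0) on the 4 vehicle (blue) and 4 D3T (red) arrays, with the mean and SD in black and the signal floor as a dotted line. Abcc2, Abcb4 and Abcb11 separate the groups, the uptake carriers overlap, Abcc3 spreads from 13.7 to 468.6 within the D3T group, and Abcb1b lies at the floor.

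Abcc3, the basolateral conjugate pump (AB010467_s_at), did not pass and was the most variable of the tested members. The vehicle replicates gave 45.2, 64.6, 46.9 and 173.1. The D3T replicates gave 193.1, 147.1, 13.7 and 468.6, so that this group held both the highest and the lowest value, at least 23.0-fold apart with the lowest set to the floor of 20.4. D3T replicate 3 lay under the floor, and 2 of 4 D3T rats exceeded every vehicle rat. The log2 fold change was 0.88 ± 0.82 (SE; adjusted p = 0.496 by limma), with a 95% interval from -0.94 to 2.70 that leaves the direction unknown. Leaving out D3T replicate 3 gave 1.76 (adjusted p = 0.0710), leaving out D3T replicate 4 gave 0.26 and leaving out vehicle replicate 4 gave 1.31. The sign turned with the actin ratio as a covariate (-1.22, adjusted p = 0.638).

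None of the 4 sinusoidal uptake genes passed the test, and the groups overlapped for each of their 5 probe sets. All 5 log2 fold changes were negative, from -0.42 to -0.06. Slc10a1, the sodium-dependent bile salt carrier (M77479_at), gave 5892, 5359, 6256 and 7678 in vehicle and 4134, 6360, 5518 and 3758 after D3T. D3T replicates 1 and 4 lay below every vehicle rat and D3T replicates 2 and 3 lay among them. The log2 fold change was -0.37 ± 0.18 (SE; limma adjusted p = 0.197), with a 95% interval from -0.76 to 0.02. Slco1a4, an organic anion carrier of broad range (U88036_at), gave 4025, 3927, 3152 and 3401 in vehicle and 1908, 3013, 3901 and 2367 after D3T. D3T replicates 1, 2 and 4 were below all vehicle rats, while D3T replicate 3 was as high as the upper vehicle rats. Its spread was larger after D3T, with a coefficient of variation of 30.9% against 11.5% in vehicle. The log2 fold change of -0.42 ± 0.20 (SE) had a 95% interval from -0.86 to 0.02 (limma adjusted p = 0.191).

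Slco1a1, the related carrier (L19031_at), gave 285.4, 256.6, 338.7 and 253.3 in vehicle and 288.6, 208.2, 233.2 and 220.2 after D3T. In this gene D3T replicate 1 stood within the vehicle range and the other 3 D3T rats lay below it. The log2 fold change was -0.26 ± 0.18 (SE; 95% interval -0.65 to 0.14; limma adjusted p = 0.358). Slc22a7, an organic anion carrier of liver, was read by a pair of probe sets taken from the same mRNA record, and they gave different sizes of change. L27651_at gave 1487, 2274, 1712 and 2078 in vehicle and 1552, 1919, 2122 and 1607 after D3T. Here the groups covered nearly the same range, and the log2 fold change was -0.06 ± 0.16 (SE; 95% interval -0.42 to 0.30; limma adjusted p = 0.821), a value that became 0.020 with quantile normalization. L27651_g_at gave 3113, 2571, 2418 and 2822 in vehicle and 1890, 2322, 2637 and 1778 after D3T. By this probe set 3 of 4 D3T rats were below all vehicle rats, and the log2 fold change was -0.35 ± 0.15 (SE; 95% interval -0.68 to -0.03; limma adjusted p = 0.143). The names of the probe sets of Abcc2, Abcb4, Abcb11 and Abcc3 and the second one of Slc22a7 mark shared sequence, so their signal may not come from the named gene alone.

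**Figure D2:**
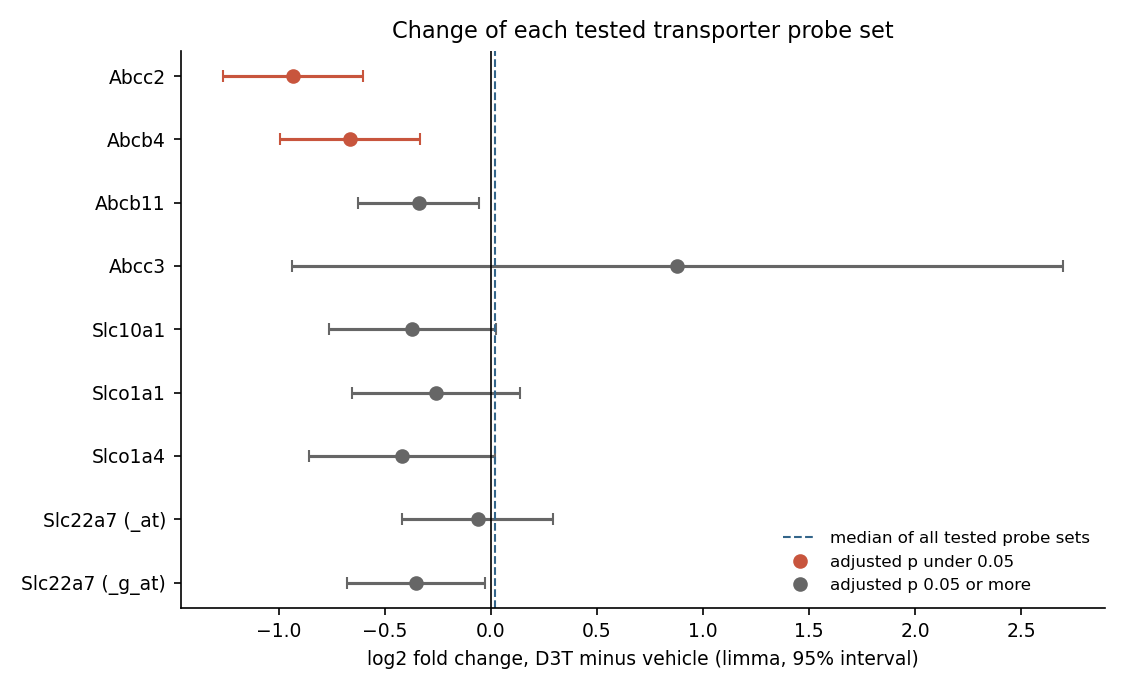
Log2 fold change (D3T minus vehicle) with its 95% interval from limma for the 9 tested transporter probe sets, red where the adjusted p was under 0.05. Abcc2 at -0.93 and Abcb4 at -0.66 passed, the interval of Abcc3 ran from -0.94 to 2.70, and the dashed line marks the median of all tested probe sets at 0.02.

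Whether a pair of transporters changed unequally was tested on the log2 ratio of their signals within each array, with exact two-sided permutation tests over 70 assignments and adjustment over 3 pairs. No pair passed. Abcc3 over Abcc2, the basolateral against the canalicular conjugate pump, had a log2 ratio of -4.74 ± 1.12 (SD, n = 4) in vehicle and -2.93 ± 1.87 after D3T. The ratio was higher by 1.81, which D3T replicate 3 did not share at -5.44 (exact p = 0.143, adjusted p = 0.429). On that array Abcc3 was under the signal floor and set to it, so both values depend on the floor. Abcb11 over Slc10a1, bile salt export against uptake, changed by 0.03, from -1.59 ± 0.27 (SD, n = 4) to -1.56 ± 0.44 (exact p = 0.943, adjusted p = 0.943). Slco1a4 over Slco1a1 changed by -0.16 (exact p = 0.686, adjusted p = 0.943). The smallest p this design allows is 0.0286, and a single changed pair cannot go below 0.0857 after adjustment over 3, so that no pair passed says little about whether ratios changed. These ratios carry probe effects, so only their change between groups has a meaning.

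Of the 4 uptake genes, 3 shared an order among the D3T rats, and Slco1a1 did not. In Slc10a1, Slco1a4 and both probe sets of Slc22a7, D3T replicates 1 and 4 were both below replicates 2 and 3, an order that 4 of the 9 tested transporter probe sets and 20.4% of all tested probe sets had. This order was chosen after the values were seen and is given as a description. The actin 3′ to 5′ ratio of D3T replicates 1 to 4 was 1.32, 1.34, 1.47 and 1.17, nearly equal in replicates 1 and 2, which lie on opposite sides of that order. When that ratio was added to the fit as a covariate, the log2 fold changes of Slc10a1 and Slco1a4 became 0.0038 and 0.032 and those of Slc22a7 became 0.16 and 0.053. Under the same fit Abcc2, Abcb4 and Abcb11 stayed at -1.04, -0.61 and -0.47 and Slco1a1 at -0.32, and no transporter passed (adjusted p from 0.108 to 0.998). Of the genes used to check the response to D3T, Nqo1 also lost its call in this fit (log2 fold change 1.67, limma adjusted p = 0.0802). Gstp1 kept its call (4.56, limma adjusted p = 0.000233). The ratio was lower on average in the D3T group, so in this fit the treatment and the ratio share part of their variation and cannot be fully separated. The part of RNA integrity in these results was not tested.

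**Figure D3:**
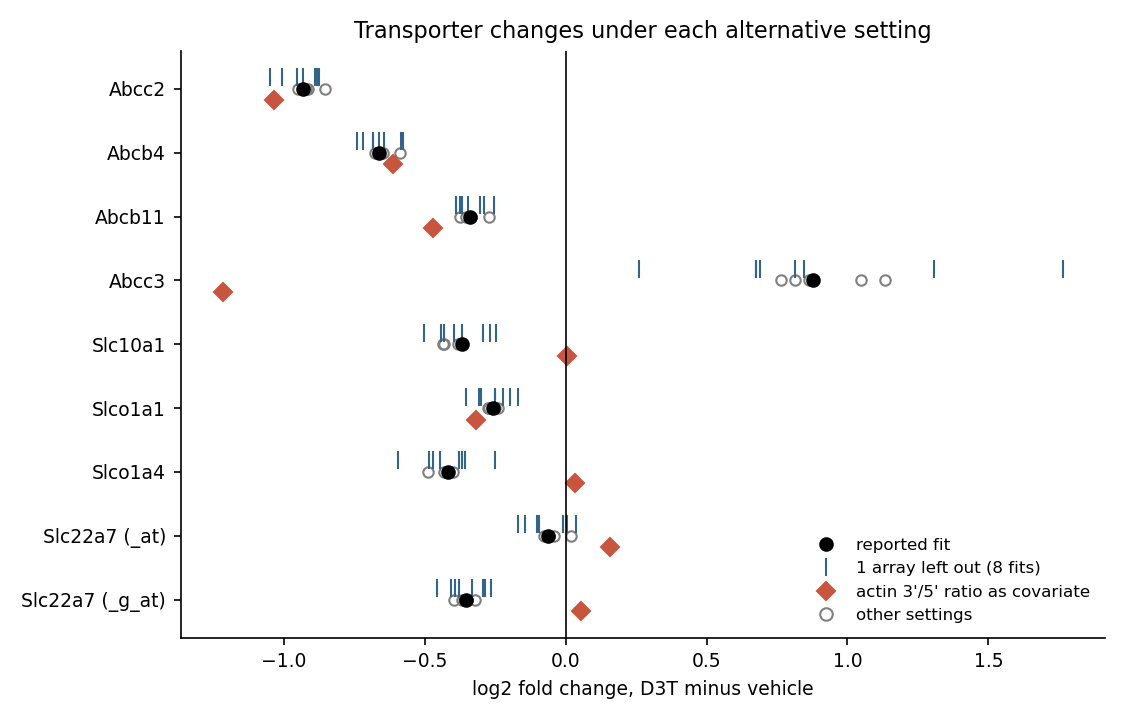
Log2 fold change (D3T minus vehicle) of each tested transporter probe set in the reported fit (black), in the 8 fits without 1 array (blue ticks), with a covariate for actin 3′/5′ (red diamonds) and under the other settings (open circles). Abcc2, Abcb4, Abcb11 and the uptake gene Slco1a1 stay below 0 throughout, whereas Slc10a1 and Slco1a4 move to 0.0038 and 0.032 with the covariate.

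Among other hepatic transporters, 2 of 16 genes tested fell and 1 rose, and the median log2 fold change was -0.01. With 1 probe set per gene, 9.56% of the 3150 genes tested were called, 5.84% lower and 3.71% higher, with a median of 0.03. Slc28a2, a sodium-coupled nucleoside carrier, fell 2.65-fold, from 861.4 ± 286.7 (SD, n = 4) to 312.9 ± 68.9 (limma adjusted p = 0.0120), with all D3T rats below all vehicle rats. Slc16a1, a monocarboxylate carrier, fell 1.99-fold, from 982.1 ± 291.2 to 495.5 ± 140.9 (limma adjusted p = 0.0409). Slc28a1, the pyrimidine-preferring relative of Slc28a2, rose 1.55-fold, from 284.4 ± 58.5 to 435.2 ± 25.8 (limma adjusted p = 0.0471). When 1 array at a time was left out, Slc16a1 and Slc28a1 kept their calls only in the absence of vehicle replicate 2, and their adjusted p rose to as much as 0.114 and 0.109. With no filter none of the 3 passed. The names of the probe sets given for Slc28a2 and Slc16a1 mark shared sequence, so their signal may not come from the named gene alone. Without such probe sets Slc28a2 was not measured, and Slc16a1 was called through another probe set.

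Of 21 regulators of these genes tested, 3 rose and 1 fell, with a median of -0.01, where 3.71% of all 3150 genes tested were called higher and 5.84% lower. Rxra, the shared partner of the nuclear receptors for bile acids and foreign compounds, rose 5.55-fold from a low signal, 121.7 ± 76.0 (SD, n = 4) to 578.6 ± 126.1 (limma adjusted p = 0.00725). Its call was lost with no filter (adjusted p = 0.0528) and with the actin ratio as a covariate (0.130), and it was too dim to be tested among the brightest 30%. Rxrb, its paralog, rose 1.55-fold (adjusted p = 0.0343), and Hnf4a, a factor that maintains hepatocyte genes, rose 1.41-fold (adjusted p = 0.0477). Cebpb, a leucine zipper factor of the acute phase, fell by 0.59 on the log2 scale, from 2383 ± 247.9 to 1586 ± 192.2 (adjusted p = 0.0186). Hnf4a lost its call whichever array was left out (adjusted p from 0.0527 to 0.116), and Rxrb kept it only in the absence of vehicle replicate 2 (otherwise 0.0510 to 0.0863). Over all 21 alternative settings the call was lost in 14 for Hnf4a and in 9 for Rxrb. Cebpb lost its call without vehicle replicate 1 (0.0574) or D3T replicate 1 (0.0565). Nr1h4, the bile acid receptor, named after its values were seen, had a mean signal of 317.8 ± 66.1 in the vehicle rats against 213.1 ± 49.9 in the D3T rats, which missed the threshold (log2 fold change -0.58 ± 0.22 SE, limma adjusted p = 0.111).

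None of 11 canalicular scaffold and plasma membrane genes passed, although 10 of the 11 values were negative and the median was -0.34. These signs are those of each gene's brightest probe set. For Anpep, Ocln and Rab11a another tested probe set had the opposite sign. The brightest, the gap junction gene Gjb1, had a log2 fold change of -0.13 ± 0.11 (SE; limma adjusted p = 0.450). Of 13 genes listed under bile acid synthesis and carriage, a list that counts Ephx1, 2 rose and none fell, with a median of -0.10. Over all 3150 genes tested, 3.71% were called higher and 5.84% lower. Ephx1, the microsomal epoxide hydrolase, rose 3.19-fold (adjusted p = 8.3e-06) and Akr1d1, a reductase in the route to bile acids, rose 1.52-fold, from 3391 ± 241.0 to 5175 ± 460.4 (adjusted p = 0.00806), and both passed in all 8 fits without 1 array. With the actin ratio as a covariate Ephx1 alone of the 9 genes called in these lists still passed.

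**Figure D4:**
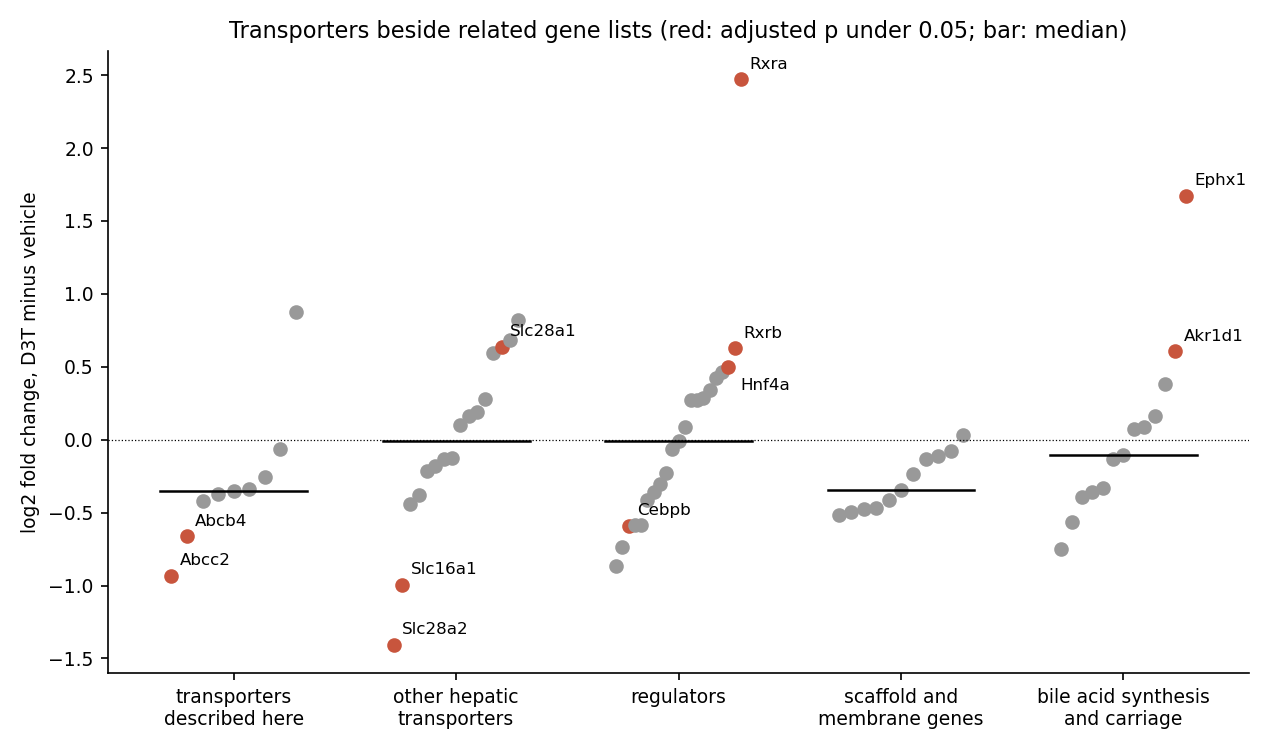
Log2 fold change (D3T minus vehicle) of the 9 tested transporter probe sets and of 1 probe set per gene in the 4 related lists, red and named where the adjusted p was under 0.05, with a bar at each median. The medians of the transporters and of the scaffold and membrane genes lie at -0.35 and -0.34, and those of the other 3 lists between -0.10 and -0.01.

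For each member that passed, the 3 tested genes with the most similar log2 signals over the 8 arrays were listed by Pearson's r, as a description that includes the difference between the groups. Because the groups did not overlap for either member, a fall in genes chosen this way is largely built in. Their p-values therefore add no support. For Abcc2 they were Insig1, a sterol sensor (r = 0.988), Csrp1, a cytoskeletal LIM protein (r = 0.987), and Papss2, which makes the sulfate donor (r = 0.976). All 3 fell, with log2 fold changes of -2.17, -1.12 and -1.34 (limma adjusted p = 0.00161, 0.00712 and 0.000321). For Abcb4 they were Slc4a4, a bicarbonate cotransporter (r = 0.989), N5 (r = 0.970) and Dmgdh, a dehydrogenase of choline breakdown (r = 0.969). Slc4a4 and Dmgdh fell, with log2 fold changes of -1.56 (limma adjusted p = 0.0228) and -0.68 (limma adjusted p = 0.0201), and N5 at -0.73 did not pass (limma adjusted p = 0.174). The call of Slc4a4 was lost without vehicle replicate 1, 3 or 4 (0.0580, 0.0654 and 0.0742) and that of Dmgdh without vehicle replicate 3 or 4 or D3T replicate 4 (0.0654, 0.0569 and 0.0526).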

How the data were processed

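The authors deposited 1 linear intensity for each probe set on each array, computed with MAS5 per the submitters' processing notes. The MAS5 version, its scaling target, detection calls and any filter were not stated in the sources used. As deposited, the 2% trimmed means of the arrays lay between 500.8 and 501.0. Array intensities hold no counts, and the precision is limited by 4 arrays per group; nothing in the labels beyond 1 rat per array describes further replication. Signals were scaled to bring every trimmed mean to 500, raised to the 20th percentile of all values (20.4) where lower, and put on the log2 scale. Of 8799 probe sets, 59 were controls and were dropped, and the brightest 60% of the rest, by mean log2 signal and blind to group, were tested (5244). The comparison was fitted with limma 3.58.1 in R 4.3.3 (lmFit, eBayes with an intensity trend), with Benjamini-Hochberg adjustment over all tested probe sets and a threshold of 0.05. Folds are ratios of geometric means of floored signals, while means and SDs of signals are linear. Of the 8740 other probe sets, 7006 had 1 symbol, 308 several and 1426 none.

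The 9 members were given, and the lists and tests were chosen with earlier results of these data known. The text names all members, in each related list the genes past the threshold or else the brightest, Nqo1, Gstp1 and Alb as checks, and the 3 genes most like each member that passed. A gene was represented by its brightest tested probe set. The fit was tested on simulated data of independent normal values. Of 5244 simulated probe sets, 67 changed 1.5-fold, 67 changed 2-fold and 66 changed 4-fold. The fit recovered 10.4%, 44.8% and 95.5% of these. It made 4 false calls among 104. In that simulation changes of 1.5-fold were mostly missed. The real comparison made more calls, 560, so these shares need not carry over to it. A gene that did not pass may still have changed by that much. Alternatives covered scaling, floor, filter, variance model, array weights, replicate number as a block, the actin ratio as a covariate, probe sets marked as shared, averaging over a gene's probe sets, and each array left out in turn. Promoter sequences were taken from RefSeq (GRCr8).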

Additional observations from a re-analysis of the deposited data

Results flagged for a closer look

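A single array stood apart from the other 3 of its group, by the gap to its nearest neighbour over the group's whole range, for 3 of 64 groups of 4 examined, and chance flags about 1 in 20. Abcc3 on vehicle replicate 4 gave 173.1, where the other vehicle rats gave 45.2 to 64.6. Cebpb on vehicle replicate 3 gave 2016, against 2479 to 2559 in the other vehicle rats. Rxrb on vehicle replicate 3 gave 215.3, against 296.4 to 309.8.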

How the results depend on the processing

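Of 182 refits of the tested transporter probe sets, 168 kept direction and side of the threshold, 6 lost a call (5 for Abcb4 and 1 for Abcc2) and 8 turned a sign that had not passed. The signs that turned were Abcc3 (-1.22), Slc10a1 (0.0038), Slco1a4 (0.032) and Slc22a7 (0.16 and 0.053) with the actin ratio as a covariate, and the first Slc22a7 probe set with quantile normalization (0.020) and in 2 fits without 1 array (range -0.17 to 0.035). The causes were not tested. The 2 transporter calls became 0 with the actin covariate (3 at an unadjusted limma p under 0.05) and 0 without probe sets marked as shared, where only 4 transporter probe sets remained and neither called one was among them (0 at an unadjusted p under 0.05). They were 1 to 2 without 1 array. Over all probe sets 560 calls became 35 with the actin covariate (24 higher and 11 lower, against 220 and 340), 333 when no trend was fitted, 309 with no filter, 261 without probe sets marked as shared and 240 to 695 without 1 array, where the count was 307 or fewer when vehicle replicate 1, 3 or 4 or D3T replicate 1 or 4 was the one left out. With the replicate number as a block 290 passed and both transporter calls were kept. Same-numbered arrays did not deviate together (correlations -0.20 to 0.06), and 1 of 4 vehicle arrays correlated best with its own number. With so few arrays these values cannot settle whether the numbers mark a pairing. The 3 calls among other transporters became 0 with no filter (6 at an unadjusted limma p under 0.05), 0 with the actin covariate (4 unadjusted), 1 when no trend was fitted, 1 without shared probe sets, 5 with array weights, 5 with the brightest 30% and 1 to 4 without 1 array. The 6 calls among regulators, scaffold and bile acid genes became 10 with the brightest 30%, 11 with array weights, 1 with the actin covariate and 3 to 6 without 1 array. The ratio changes were 1.15 to 2.65 for Abcc3 over Abcc2, -0.14 to 0.21 for Abcb11 over Slc10a1 and -0.34 to 0.10 for Slco1a4 over Slco1a1 without 1 array. Scaling moved the median of all probe sets by less than 0.1.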

Other observations

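The related lists held 16 other transporters, 21 regulators, 11 scaffold and membrane genes and 13 bile acid genes that were tested. Of these, 8 were lower and 2 higher after D3T with groups that did not overlap, without passing. They are named after their values were seen. Over all tested probe sets, those that passed included, 11.3% did not overlap as lower and 7.89% as higher. The list counts take 1 probe set per gene and leave out genes that passed, so they are not on the same footing. They are given as a description and do not set these lists apart. In bile acid synthesis the lower ones were Baat, which joins bile acids to taurine or glycine (4646 ± 649.5 in vehicle and 3191 ± 779.5 after D3T, SD, n = 4; limma adjusted p = 0.0671), Amacr, a racemase of the side chain (2584 against 1603, limma adjusted p = 0.0548), Hsd3b7, a steroid dehydrogenase (3697 against 2928, limma adjusted p = 0.0622) and Akr1c14, a steroid reductase (2755 against 2102, limma adjusted p = 0.0671). A second probe set of Akr1c14 had the opposite sign. Acox2, a peroxisomal oxidase of the side chain, was wholly higher after D3T (1132 ± 78.1 in vehicle and 1491 ± 260.4 after D3T, SD, n = 4; limma adjusted p = 0.0967). Cyp7a1, the rate-limiting enzyme, had means of 646.1 ± 227.4 in the vehicle rats and 669.4 ± 195.4 in the D3T rats, which overlapped (limma adjusted p = 0.878). Among transporters Slco2a1, a prostaglandin carrier, was at 4115 ± 573.8 in vehicle and 3034 ± 456.1 after D3T (limma adjusted p = 0.0692), and its other probe set had the opposite sign. Slc29a1, a nucleoside carrier, was at 726.0 against 561.9 (limma adjusted p = 0.122). Anpep, an aminopeptidase of the canalicular membrane, was at 974.4 against 703.4 (limma adjusted p = 0.0577), and its 2 other probe sets had the opposite sign. Among regulators Nr1h3, an oxysterol receptor, was lower at 1235 against 961.7 (limma adjusted p = 0.0929), and Ppara, a fatty acid receptor, was higher at 145.2 in vehicle and 198.1 after D3T (limma adjusted p = 0.149).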
